A study of Mus musculus with 1183 samples.

Results

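The genes described here are 7 proteases stored in the granules of mast cells and basophils: the tryptases Tpsb2 and Tpsab1, the chymase-family genes Cma1, Mcpt4 and Mcpt8, the carboxypeptidase Cpa3 and cathepsin G, Ctsg. They were chosen by symbol, and all 7 were among the 18072 genes of the count table. Expression had been measured by single-cell RNA-seq in immune cells sorted from the distal lung of mice of postnatal day 7 under hyperoxia, with Tn5 transposase libraries made from 1 cell each. There were 1183 cells, of which 598 came from 1 female and 585 from 1 male animal. The labels divide them into 16 subtypes, and the genes were followed above all in mast cell (59 cells), mast cell II (22 cells) and basophil (53 cells). All groups shared the age and the exposure, and no cells from normal oxygen were analysed here. The labels give neither the strain nor the oxygen level. The animal was the replicate (n = 2), so animal and sex cannot be told apart and no test was made between the animals. How the subtype labels were assigned is not given in the sources used here. If they rest on these same genes, a difference between classes is in part set by the labels.

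Mast cells keep these enzymes in secretory granules, bound to the negatively charged chains of the proteoglycan serglycin, and release them when their high-affinity IgE receptor is cross-linked. Tryptases cut proteins after basic residues, chymases mostly after aromatic residues, and carboxypeptidase A3 trims residues from the carboxyl end. Mouse mast cells of connective tissue are known for the tryptase of Tpsb2, the chymases of Cma1 and Mcpt4 and for Cpa3, mucosal mast cells for the chymases of Mcpt1 and Mcpt2, and mouse basophils for Mcpt8. Cathepsin G is best known from the azurophil granules of developing neutrophils and is also found in mast cells.

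The annotation places the members at 3 loci. In RefSeq's annotation of the mouse assembly GRCm38.p6, 8 protein-coding genes follow one another on chromosome 14 in the order Cma1, Cma2, Mcpt1, Mcpt2, Mcpt9, Mcpt4, Mcpt8 and Ctsg, and Mcpt4 and Mcpt8 are neighbours. Tpsab1 and Tpsb2 are neighbours on chromosome 17, and Cpa3 is on chromosome 3. RefSeq lists Tpsab1 as a transcribed pseudogene, and the GENCODE M21 annotation lists it as protein-coding. The alternative names Mcpt5 for Cma1, Mcpt6 for Tpsb2 and Mcpt7 for Tpsab1 are listed as RefSeq synonyms.

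The stretches of 250 bases before the transcript start are printed for 4 of the 5 members that have a window. Cma1, Mcpt4 and Cpa3 were picked as highest in mast cells, and Mcpt8, next to Mcpt4, as highest in basophils. The printed stretches leave out Ctsg, which was also highest in mast cells. They are given 5′ to 3′ on the coding strand, which is the minus strand for each. The windows are chr14:55944676-55944925 for Cma1, chr14:56062311-56062560 for Mcpt4, chr14:56085198-56085447 for Mcpt8 and chr3:20242182-20242431 for Cpa3, from RefSeq on GRCm38.p6. Capitals mark, on either strand, GATA with A or T before it and A or G after it, the core letters bound by GATA factors such as GATA2, a factor of mast cells and basophils.
Cma1: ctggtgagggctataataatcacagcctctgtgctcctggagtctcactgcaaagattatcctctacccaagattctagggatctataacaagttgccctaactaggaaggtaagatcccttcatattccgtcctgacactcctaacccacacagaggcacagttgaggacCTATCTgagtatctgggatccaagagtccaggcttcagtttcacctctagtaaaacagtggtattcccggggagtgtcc
Mcpt4: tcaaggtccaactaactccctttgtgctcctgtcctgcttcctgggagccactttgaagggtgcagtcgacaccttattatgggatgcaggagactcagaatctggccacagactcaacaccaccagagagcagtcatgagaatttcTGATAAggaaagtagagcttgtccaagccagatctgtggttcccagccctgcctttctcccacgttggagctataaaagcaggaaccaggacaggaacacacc
Mcpt8: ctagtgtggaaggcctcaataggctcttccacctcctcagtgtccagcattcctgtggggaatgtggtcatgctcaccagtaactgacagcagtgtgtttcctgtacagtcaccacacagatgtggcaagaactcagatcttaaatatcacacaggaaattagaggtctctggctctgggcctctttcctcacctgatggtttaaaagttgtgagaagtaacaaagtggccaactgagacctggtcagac
Cpa3: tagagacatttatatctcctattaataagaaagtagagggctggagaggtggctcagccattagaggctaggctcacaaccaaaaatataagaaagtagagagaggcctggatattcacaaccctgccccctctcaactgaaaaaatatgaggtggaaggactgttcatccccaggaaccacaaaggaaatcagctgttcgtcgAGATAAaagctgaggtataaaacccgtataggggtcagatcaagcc
Cpa3 holds AGATAA from 46 to 41 bases before the start, Mcpt4 holds TGATAA ending 98 bases before it, and Cma1 holds AGATAG on the opposite strand from 79 to 74 bases before it. No such word lies in the Mcpt8 window or in that of Ctsg, which is not printed. Since Ctsg was highest in mast cells too, having a word and being highest in mast cells did not go together in all 5 windows. Thus 3 of the 5 member windows held a word, against 26.5% of 32851 RefSeq windows of the same length. The E-box words CACGTG and, on either strand, CACATG, which MITF-type factors can bind, were searched likewise. Of the 5 windows, that of Ctsg alone held CACATG, from 77 to 72 bases before the start, and 17.6% of all windows held one of these words. A match describes the letters and is not evidence of binding. Tpsb2 and Tpsab1 have no window here.

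Depth ran from 16753 to 7560179 reads per cell, with a median of 1100966. Summed over cells, the mast cells held 61799099 reads in the female (39 cells) and 27561347 in the male (20 cells), the mast cell II cells 23286033 (14 cells) and 8816213 (8 cells), and the basophils 49391781 (34 cells) and 19673065 (19 cells). The class labels were compared with marker genes, counted where both animals had at least 50 CPM, a gene's reads in the summed cells scaled to a fixed total of reads. Mast cells had 7 of 7 mast cell markers at that level, with Kit, the stem cell factor receptor, at 1388 CPM (female) and 786 CPM (male). Basophils had 8 of 8 basophil markers, and Kit had 9 reads in all 53 of them. The lists share genes of both cell types: basophils also had 6 of the 7 mast cell markers, summed to 12943 CPM and 16132 CPM against 11661 CPM and 10964 CPM in mast cells. Mast cells had 6 of the 8 basophil markers, summed to 3350 CPM and 3173 CPM against 11296 CPM and 18684 CPM in basophils. Mast cell II cells had 3 of the 7 mast cell markers, Kit, Gata2 and the amine transporter gene Slc18a2. They had 0 of the 8 basophil markers at that level, and Fcer1a, the binding chain of the IgE receptor, had 0 reads. Their median number of genes with a read was 6012 in the female and 5138 in the male, against 3937 and 3906 in mast cells and 2657 and 2727 in basophils. All but 2 of the mast cells, both of the female, came from plates of the CD45 gate, and those 2 came from a gate labelled mesench.

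The tryptase Tpsb2 and the chymase Cma1 took the most reads of the 7 in mast cells of both animals. Tpsb2 stood at 80013 CPM (female) and 85680 CPM (male), and Cma1 at 80934 CPM and 86808 CPM. The second chymase, Mcpt4, stood at 18237 CPM (female) and 22410 CPM (male), and Cpa3 at 29021 CPM and 19032 CPM. Tpsab1, the other tryptase, stood at 4998 CPM and 4588 CPM. Ctsg reached 220 CPM and 351.5 CPM, and Mcpt8 21.7 CPM and 94.4 CPM. Levels of different genes can be compared only per length. Per kilobase of GENCODE M21 exons, the mast cell level was 76946 ± 3810 CPM for Cma1, 51974 ± 2514 CPM for Tpsb2, 18342 ± 2663 CPM for Mcpt4, 15838 ± 4656 CPM for Cpa3, 2289 ± 138.4 CPM for Tpsab1, 276.6 ± 90.02 CPM for Ctsg and 58.2 ± 51.5 CPM for Mcpt8 (SD, n = 2). On this scale Mcpt4 and Cpa3 differed by less than their spread over animals, and Tpsb2 lay below Cma1 by more than both SDs. Before division by length, Tpsb2 and Cma1 stood close together in each animal. The exon lengths used were 1594 bases for Tpsb2, 1090 for Cma1 and 2094 for Tpsab1. The SDs cover the animals only, and whether these lengths match the transcripts counted was not tested.

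**Figure D1:**
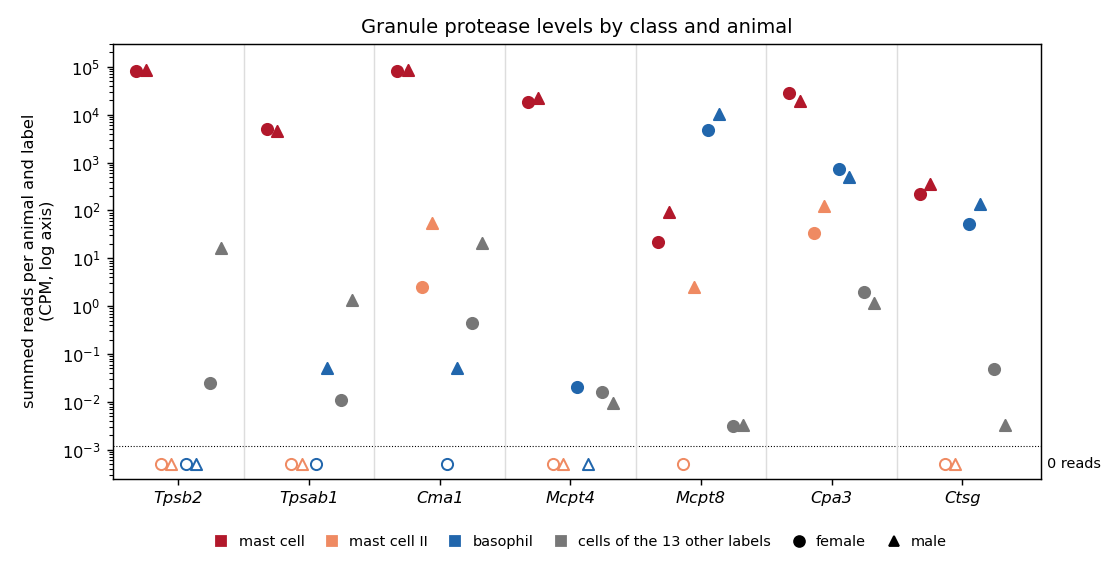
Summed level of each protease (CPM, log axis) in mast cell, mast cell II, basophil and the cells of the 13 other labels, with a circle for the female and a triangle for the male; open marks below the dotted line stand for 0 reads. Mast cells lie highest for 6 of the 7 genes and basophils for Mcpt8, and mast cell II has 0 reads in both animals for Tpsb2, Tpsab1, Mcpt4 and Ctsg.

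Nearly all single mast cells carried Tpsb2, Tpsab1, Cma1 and Cpa3, 4 of the 7. After each cell had been thinned to 100000 reads and counted as positive with at least 5 reads, Cma1 and Cpa3 were found in 39 of 39 cells of the female and 20 of 20 of the male, and Tpsb2 in 38 of 39 and 20 of 20. Tpsab1 was found in 38 of 39 and 18 of 20 cells. Mcpt4 was found in fewer, 31 of 39 cells (79.5%, 95% Clopper-Pearson interval 63.5% to 90.7%) and 17 of 20 cells (85%, 62.1% to 96.8%). Ctsg was found in 12 of 39 cells (30.8%, 17.02% to 47.6%) and 9 of 20 cells (45%, 23.1% to 68.5%). Mcpt8 was found in 2 of 39 and 1 of 20. These intervals cover counting error only and treat cells as independent draws, which the cells of 1 animal are not.

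The spread between mast cells differed by gene. Cma1 ran from 2320 CPM to 124283 CPM over the cells of the female, with a median of 76099 CPM, and from 14199 CPM to 144458 CPM in the male, with a median of 79669 CPM. Tpsb2 ran from 0 to 117027 CPM with a median of 74587 CPM in the female, and from 10026 CPM to 131011 CPM with a median of 89724 CPM in the male. Cpa3 ran from 5022 CPM to 60567 CPM (median 27526 CPM) and from 6084 CPM to 30736 CPM (median 17978 CPM). The coefficient of variation over cells was 32.4% and 37.5% for Tpsb2, 35.2% and 38.6% for Cma1 and 42.8% and 36.8% for Cpa3, in the female and the male. It was larger for Tpsab1, at 71.8% and 95.6%, and for Mcpt4, at 80.1% and 72.8%, and largest of these for Ctsg, at 231.1% and 242.7%. So the 3 members with the least variation were a tryptase, a chymase and the carboxypeptidase, while Mcpt4 and Ctsg had reads in some cells and not in others. Tpsb2 and Cma1 were also the members with the most reads, and Ctsg lay far below them. A low level can raise this variation and leave a cell without reads, and its part here was not tested. Cells without Ctsg reads are therefore not shown to lack the gene's transcripts. Tpsab1 lay between these patterns, being found in nearly every cell but at levels from 0 to 13288 CPM in the female and from 0 to 13509 CPM in the male.

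**Figure D2:**
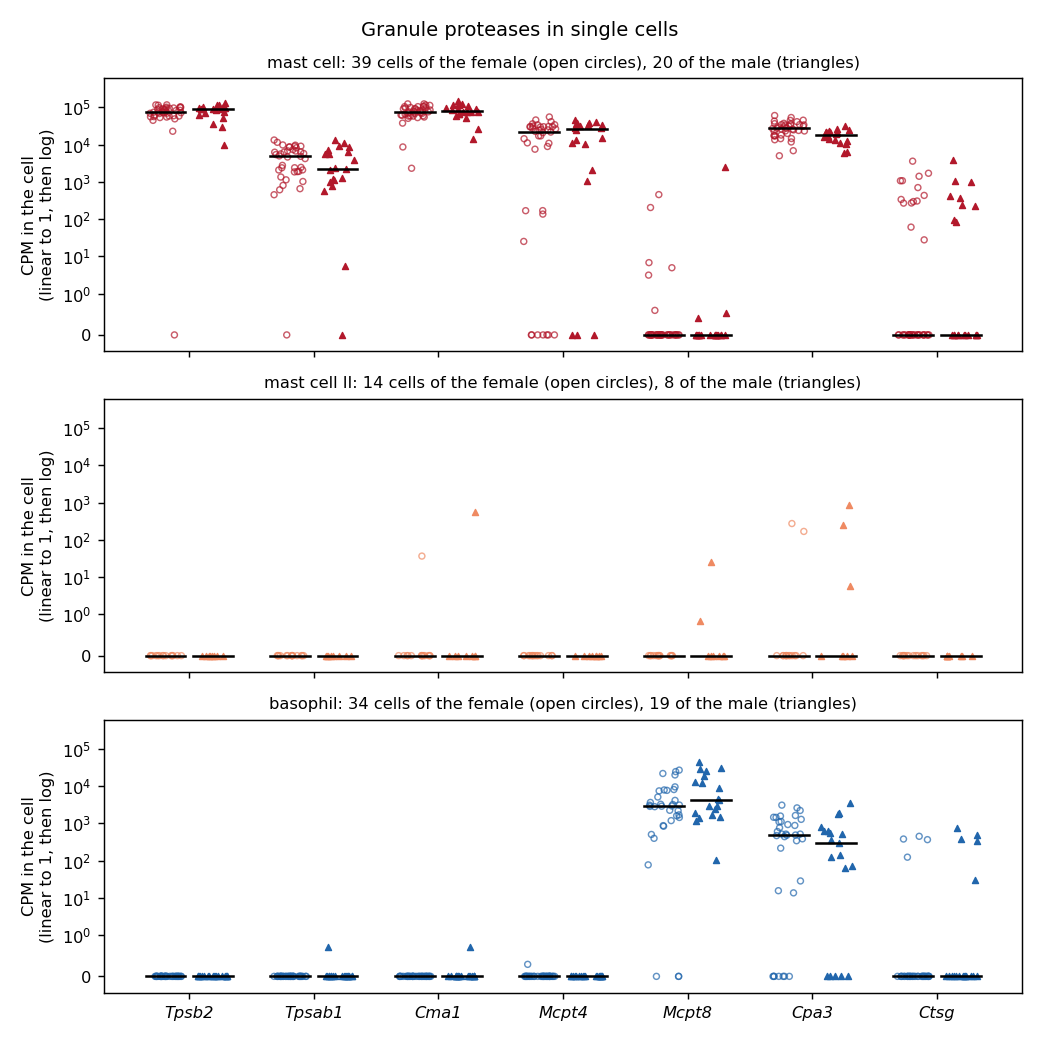
Level of each protease in single cells (CPM, linear up to 1 and logarithmic above), by class, with an open circle for each cell of the female, a triangle for each cell of the male and a bar at the median. In mast cells Tpsb2, Cma1 and Cpa3 form tight bands, Mcpt4 and Ctsg split into cells with and without reads, and in basophils Mcpt8 and Cpa3 stand alone with Ctsg in a few cells.

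Together the 7 genes took 21.3% of all counted reads of the mast cells of the female and 21.9% of those of the male. Single mast cells ranged from 1.68% to 30.97% (median 21.3%) in the female and from 3.24% to 30.8% (median 22.8%) in the male. The share was 20% or more in 23 of 39 and 12 of 20 cells. In basophils the summed share was 0.557% and 1.09%, and in mast cell II 0.00365% and 0.0182%. The summed shares of the 3 classes did not overlap over the animals, but those of single cells did. Basophils reached 2.68% (female) and 4.58% (male), above the lowest mast cells. Mast cell II cells reached 0.0310% and 0.147%, above the lowest basophils (0.00283% and 0.0132%). Because the members take about 1 read in 5, the CPM of every other gene in mast cells is lowered by that share.

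**Figure D3:**
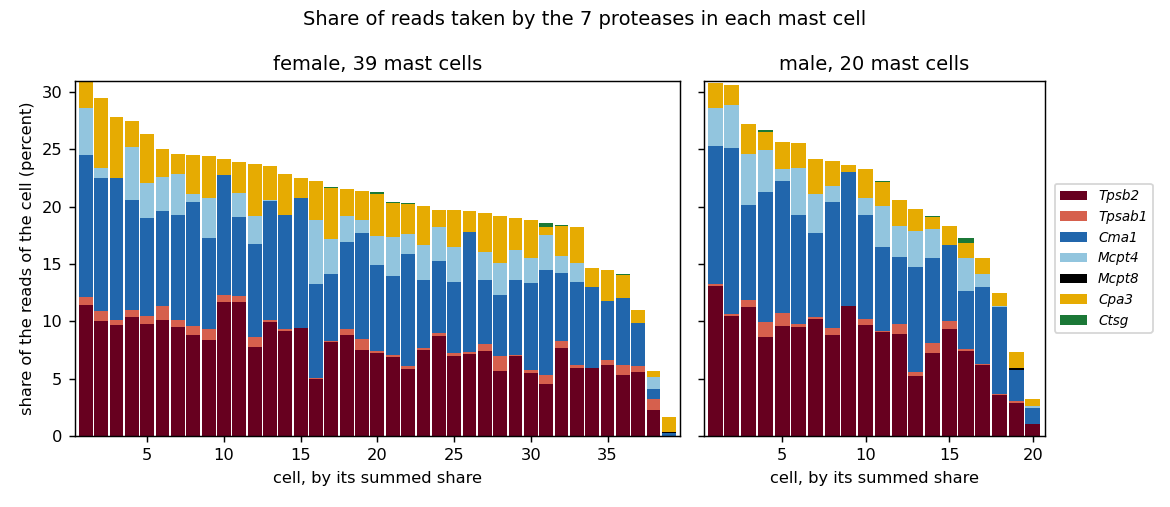
Share of the reads of each mast cell (percent) taken by each of the 7 proteases, stacked, with cells in falling order of the summed share in the female (39 cells) and the male (20 cells). Tpsb2 and Cma1 make up most of every tall bar, and the lowest cells hold 1.68% and 3.24%.

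Mast cells carried the members in few combinations. Of the 59 cells, 25 held Tpsb2, Tpsab1, Cma1, Mcpt4 and Cpa3, and 20 more held these 5 with Ctsg. Another 9 cells, 8 of the female and 1 of the male, held Tpsb2, Tpsab1, Cma1 and Cpa3 without Mcpt4. The remaining 5 cells each had a combination of their own, 3 of them with Mcpt8. Ctsg was found in 21 cells, and all of them were among the 48 cells with Mcpt4. Over the 3 mast cells with Mcpt8 its level was 204.4 CPM, 455 CPM and 2527 CPM, and the last of these cells held 99.9% of the Mcpt8 reads of the male mast cells. The summed level of Mcpt8 in male mast cells is therefore the level of 1 cell.

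Within mast cells the levels of Tpsb2 and Cma1 went together from cell to cell. Spearman's rho of their CPM was 0.594 over the 39 cells of the female and 0.624 over the 20 cells of the male. For Tpsb2 and its neighbour Tpsab1 it was 0.186 and 0.147. Between Tpsb2 and Cpa3 it was 0.196 in the female and 0.585 in the male, and between Mcpt4 and Cpa3 0.230 and 0.495. These are descriptions over cells, which share 1 animal and, through CPM, 1 total per cell. Tpsb2 and Cma1 had a rho with the cell total of 0.158 and 0.174 in the female and 0.0917 and 0.128 in the male.

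Basophils had another set. Mcpt8 stood at 4775 CPM (female) and 10280 CPM (male), Cpa3 at 744 CPM and 495 CPM, and Ctsg at 53.3 CPM and 137.7 CPM. Tpsb2 had 0 reads in the basophils of both animals, where a count of 0 allows a level of up to 0.0607 CPM and 0.152 CPM, and Tpsab1, Cma1 and Mcpt4 had 1 read each over the 53 cells. Mcpt8 was thus high in both animals, and the connective tissue tryptases and chymases were at or under the limit of detection. Per kilobase of exons Mcpt8 reached 7542 ± 3901 CPM, Cpa3 408 ± 115.7 CPM and Ctsg 92.5 ± 57.7 CPM (SD, n = 2). Mcpt8 was found in 31 of 34 cells (91.2%, 76.3% to 98.1%) and 19 of 19, Cpa3 in 24 of 34 (70.6%, 52.5% to 84.9%) and 14 of 19 (73.7%, 48.8% to 90.9%), and Ctsg in 4 of 34 and 5 of 19. Of the 53 basophils, 30 held Mcpt8 with Cpa3, 11 Mcpt8 alone, 6 Mcpt8, Cpa3 and Ctsg, 3 Mcpt8 with Ctsg, 2 Cpa3 alone and 1 none of the 7.

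Mcpt8 varied more between basophils than the leading proteases did between mast cells, where those stood at higher levels. The part of the level in this difference was not tested. Mcpt8 ran from 0 to 26845 CPM in the female, with a median of 2900 CPM, and from 102.5 CPM to 45293 CPM in the male, with a median of 4362 CPM. Its coefficient of variation was 132.3% and 118.5%, and that of Cpa3 107.3% and 151.7%. Mcpt8 and Cpa3 did not go together from cell to cell, with a rho of 0.0161 over 34 cells and −0.0726 over 19. Mcpt8 went with Prss34, a second serine protease known from mouse basophils, with a rho of 0.739 and 0.853. Prss34 was found in 14 of 34 and 8 of 19 basophils and stood at 3589 CPM and 8285 CPM.

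The comparison of mast cells with basophils asks which proteases separate these granulocytes. The quasi-likelihood test of edgeR with Benjamini-Hochberg adjustment over 15600 genes called 4 of the 7 members higher in mast cells, where 1.71% of all genes were called in either direction, 0.987% as higher and 0.724% as lower. The 4 were Tpsb2 (adjusted p = 0.000491, at least 1882268-fold higher against 3 reads over the basophils), Mcpt4 (adjusted p = 1.13e-05), Cma1 (adjusted p = 0.00960) and Tpsab1 (adjusted p = 0.0107). The bound for Tpsb2 covers the counting of reads only, and not which cells or animals were sampled. Cma1, Mcpt4 and Tpsab1 had 1 basophil read each, so no fold is given. The values of all 7 genes lay apart between the classes, every mast cell library above or every one below both basophil libraries, as did those of 41.1% of all genes tested.

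Mcpt8 was 143.7-fold lower in the summed reads of mast cells than in those of basophils. Its log2 fold change was −7.24 (SE 1.71), and with an adjusted p of 0.0586 by edgeR's quasi-likelihood test it missed the threshold of 0.05. With the animal as a block, so that mast cells and basophils of the same animal are paired, its adjusted p was 0.0300 and it was called. With the 2 classes alone in the fit it was 0.0114, and Mcpt8 was called again. In the fit of all subtypes without the block, edgeR called no member lower, while 1 of 7 had an unadjusted p under 0.05 in that direction, where 5.36% of all genes did. DESeq2 called 3 of the 7, all higher in mast cells, where it called 14.1% of its genes. Cpa3 was 38.5-fold higher in mast cells by summed reads (log2 fold change 5.09, SE 2.34, adjusted p = 0.285), and Ctsg 3.37-fold higher (1.35, SE 1.78, adjusted p = 0.829). Neither passed edgeR's test in the fit of all subtypes. With the 2 classes alone in the fit, Cpa3 was called by edgeR (adjusted p = 0.00326) and Ctsg was not. In that fit 6 of the 7 members were called, where 2.62% of the genes were. The call of Cma1 was lost when cells of 1 sequencing run were used (adjusted p = 0.0566) and without the female basophil library (0.0982), and that of Tpsab1 without either basophil library (0.0817 without the female, 0.0760 without the male) and by DESeq2 (0.133).

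Cells labelled mast cell II held almost none of the proteases. Cpa3 was the member they had most of, at 34.1 CPM (female) and 124.8 CPM (male), and these 793 and 1100 reads came from 2 and 3 cells. Cma1 stood at 2.49 CPM and 54.6 CPM, with all reads of each animal in 1 cell. Mcpt8 had 0 reads in the female and 22 in the male (2.495 CPM). Tpsb2, Tpsab1, Mcpt4 and Ctsg had 0 reads in both, which allows a level of up to 0.129 CPM (female) and 0.340 CPM (male). Taken as 3 cells of the total, a count of 0 cells allows a share of up to 21.4% of the 14 cells of the female and up to 37.5% of the 8 of the male. At 5 reads after thinning, 18 of the 22 cells held no member, 3 held Cpa3 and 1 held Cma1 with Cpa3. The 4 cells with Cpa3 had 168.03 to 871.96 CPM of it, where the lowest mast cell had 5022 CPM.

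Against mast cells, edgeR's quasi-likelihood test called 3 of the 7 members lower in mast cell II, where 0.788% of all genes were called, 0.647% as lower and 0.141% as higher. They were Mcpt4 (adjusted p = 2.32e-05, at least 208921-fold lower), Tpsb2 (adjusted p = 0.000829, at least 874903-fold) and Tpsab1 (adjusted p = 0.0184, at least 52129-fold). These bounds set 3 reads over the mast cell II group against the mast cell level. They cover the counting of reads only, and not which cells or animals were sampled. All 7 members had lower values in both mast cell II libraries than in either mast cell library, as did 16.7% of all genes tested, and all 7 had an unadjusted p under 0.05, as did 8.72% of all genes in that direction. The other 4 did not pass the adjustment: Cma1 was 4928-fold lower in summed reads (log2 fold change −12.19, SE 2.95, adjusted p = 0.0771), and Cpa3 440-fold lower (−8.94, SE 2.78, adjusted p = 0.171). Mcpt8 had a log2 fold change of −6.29 (SE 1.67, adjusted p = 0.127), and Ctsg was at least 2788-fold lower (adjusted p = 0.0658).
The call of Tpsab1 was lost by DESeq2 (adjusted p = 0.118), without either mast cell II library (0.114 without the female, 0.129 without the male) and without the female mast cell library (0.0507). With the 2 classes alone in the fit, 6 of the 7 members were called, where 2.77% of the genes were.

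Against basophils, 2 of the 7 members were called lower in mast cell II, where 3.41% of all genes were called, 1.96% as lower and 1.46% as higher. This comparison uses the same mast cell II libraries as the last and the same basophil libraries as the one with mast cells. Mcpt8 was 9255-fold lower in summed reads (log2 fold change −13.54, SE 2.18, adjusted p = 0.00526, edgeR's quasi-likelihood test). Ctsg was at least 828-fold lower (adjusted p = 0.0392). The Ctsg call ended with the animals paired as a block (adjusted p = 0.0581), within 1 sequencing run (0.0911), by DESeq2 (0.248) and with any 1 of the 4 libraries left out (0.0613 to 0.170). The Mcpt8 call ended by DESeq2 (0.257) and with the 2 classes alone in the fit (0.0524). Cpa3 was 11.4-fold lower in summed reads and did not pass (log2 fold change −3.85, SE 2.21, adjusted p = 0.342). No member was called higher in mast cell II, while 1 of 7, Cma1, had an unadjusted p under 0.05 in that direction, where 11.5% of all genes did. DESeq2 called 0 of 7, with 1 at an unadjusted p under 0.05, where it called 18.5% of its genes.

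The 1049 cells of the other 13 labels held few of these reads. In edgeR's quasi-likelihood test against these cells summed per animal, 4 of the 7 members were called higher in mast cells, where 1.64% of 14520 genes were called, 0.689% as higher and 0.95% as lower. They were Mcpt4 (adjusted p = 0.000483) and Cpa3 (adjusted p = 0.00128, log2 fold change 14.34, SE 1.08). Ctsg (adjusted p = 0.0133, log2 fold change 13.86, SE 1.71) and Mcpt8 (adjusted p = 0.0256) were the others. Mcpt8 was found in 3 of the 59 mast cells. Tpsb2, Tpsab1 and Cma1, though 9891-fold, 7202-fold and 7980-fold higher in summed reads, had adjusted p-values of 0.126, 0.0546 and 0.0529. With the animals paired as a block, Tpsab1 (0.0388) and Cma1 (0.00942) were called and Tpsb2 was not. Without the mast cells of either animal, Ctsg and Mcpt8 were no longer called (adjusted p from 0.0755 to 0.107).

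A single cell held nearly all the tryptase and chymase reads outside the 3 classes. This male cell is labelled Mac III, came from the second plate and had 10335 of the 10364 Tpsb2 reads, 838 of the 848 Tpsab1 reads and 12718 of the 13001 Cma1 reads. Its levels were 4836 CPM for Tpsb2, 392 CPM for Tpsab1, 5951 CPM for Cma1 and 262.97 CPM for Cpa3, with 0 reads of Mcpt4. The members made up 1.14% of its reads, against 3.24% in the lowest male mast cell. It had 599 CPM of the macrophage gene Mrc1 and 637 CPM of Cd68, 0 of the 7 mast cell markers at 50 CPM or more, 72 reads of Gata2, 2 of Ms4a2, and 0 reads of Kit and Fcer1a. Its 2137123 reads were above the median of 1108525 for that label. Without this cell, the male Mac III level fell from 43.9 CPM to 0.0257 CPM for Tpsb2 and from 53.99 CPM to 0.00428 CPM for Cma1. All 7 members were then called higher in mast cells, where 0.709% of all genes were (Tpsb2: adjusted p = 0.000239 by edgeR, log2 fold change 22.18, SE 0.64). The cell was picked for its Cma1 reads, so leaving it out raises the folds of Tpsb2, Tpsab1 and Cma1 by design. Their calls without it are therefore no separate support. Whether its reads came from the cell itself or from another was not tested.

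A further 4 cells outside the classes stood out, each for 1 gene. An IL cell of the female had 936 CPM of Cpa3, with 153.2 CPM of Kit and 244.7 CPM of the IL-33 receptor gene Il1rl1. A T cell of the male had 168.3 CPM of Cpa3, an NK cell of the female 174.95 CPM of Cma1, and a Mac V cell of the female 16.6 CPM of Ctsg. Over all 1049 cells of the other labels, the Mac III cell included, Tpsb2 had a read in 27, of which 25 had exactly 1, and Mcpt8 had 4 reads in 4 cells. In B cells, which should lack these genes, Tpsb2 had 1 read in each of 3 of 65 cells, Tpsab1 had 1 read in 1 cell, Cpa3 had 4 reads in 1 cell, and Cma1, Mcpt4, Mcpt8 and Ctsg had none.

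**Figure D4:**
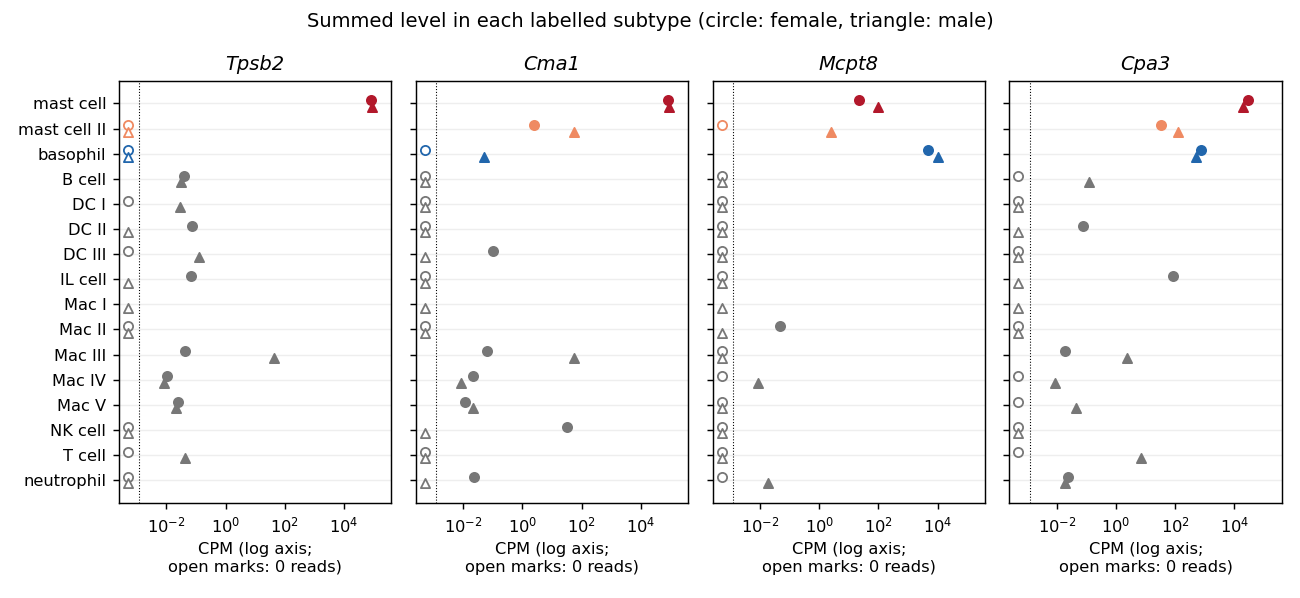
Summed level (CPM, log axis) of Tpsb2, Cma1, Mcpt8 and Cpa3 in each labelled subtype, with a circle for the female and a triangle for the male; open marks left of the dotted line stand for 0 reads. Mast cells lie highest for Tpsb2, Cma1 and Cpa3 and basophils for Mcpt8, and the triangle of Mac III for Tpsb2 (43.9 CPM) and Cma1 (53.99 CPM) rests on 1 cell.

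In order of mean level over the 2 animals, Tpsb2 and Tpsab1 were followed after mast cells by Mac III (21.97 ± 31.01 CPM and 1.80 ± 2.498 CPM, SD, n = 2), and Cma1 by mast cell II (28.5 ± 36.8 CPM), Mac III (27.03 ± 38.1 CPM) and NK cell (15.9 ± 22.5 CPM). These followers do not differ beyond their spread, and each rests on 1 or 2 cells. Cpa3 had a clearer order, with mast cells at 24027 ± 7063 CPM, basophils at 620 ± 175.5 CPM, mast cell II at 79.4 ± 64.1 CPM and IL cells at 43.4 ± 61.4 CPM, of which the last 2 overlap. For Ctsg mast cells (285.7 ± 92.996 CPM) stood above basophils (95.5 ± 59.6 CPM), followed by Mac V at 0.185 ± 0.262 CPM, and neutrophils, in whose precursors the gene is best known, had 0 reads. Mcpt8 stood at 7527 ± 3893 CPM in basophils, 58.04 ± 51.4 CPM in mast cells and 1.25 ± 1.76 CPM in mast cell II.

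Against the other 13 labels, basophils were called higher by edgeR's quasi-likelihood test for 3 of the 7 members, where 4.13% of all genes were called, 1.23% as higher and 2.9% as lower. Cpa3 was 422-fold higher in summed reads (log2 fold change 9.23, SE 0.90, adjusted p = 0.00478), Mcpt8 had an adjusted p of 0.00785 with 4 reads in the other cells, and Ctsg was 2940-fold higher (12.50, SE 1.64, adjusted p = 0.0126). These 3 calls held in 11 of 11 alternative settings and with any 1 of 4 libraries left out. Mast cell II cells were called higher for Cpa3 alone, 1 of the 7, where 1.6% of genes were called, 0.193% as higher and 1.41% as lower. Cpa3 was 37.002-fold higher there (log2 fold change 5.44, SE 0.77, adjusted p = 0.0149), and the call held in 10 of 11 alternatives. These comparisons share the libraries of the other labels with the one of mast cells.

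The plates of the 2 animals differed in run, and levels of Cpa3, Mcpt4 and Ctsg differed between the CD45 plates of the female. In mast cells of the female Cpa3 stood at 38514 CPM on the first CD45 plate (run DC28) and at 22489 CPM on the second (run DC35). On the 2 plates of the male, both of run DC35, it stood at 19019.9 CPM and 19041 CPM. In basophils the same plates gave 1054 CPM, 572 CPM, 502 CPM and 488 CPM. Within run DC35 the animals therefore lay closer together for Cpa3 than when all plates were summed. For Mcpt4 in mast cells they lay further apart. It stood at 23489 CPM and 14598 CPM on the female CD45 plates and at 26258 CPM and 19788 CPM on the male plates. Summed, Mcpt4 stood at 18237 CPM (female) and 22410 CPM (male). Ctsg in basophils stood at 102.1 CPM and 26.5 CPM on the female plates. In mast cells Ctsg went the other way, at 150.3 CPM and 263.6 CPM on the first and second female CD45 plates. On the male plates, both of run DC35, it stood at 185.3 CPM and 464.7 CPM in mast cells. Tpsb2 in mast cells of the female changed less, at 84435 CPM and 77059 CPM. Mcpt8 in basophils was higher on both male plates (10674 CPM and 9825 CPM) than on both female plates (6076 CPM and 4056 CPM), and this order also held within run DC35. The part of the run in these values was not tested, since only the female has cells in run DC28.

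Other genes of the granule, its receptors and its mediators were followed through lists of related genes. In mast cell II, 2 granule amine genes, 3 IgE receptor and surface genes, the serglycin gene and the protease gene Prss34 were called lower than in mast cells, where 0.788% of all genes tested were called and 0.647% as lower. Of 8 granule amine genes tested, 2 fell and 0 rose: Hdc, which makes histamine, was 6046 CPM and 6607 CPM in mast cells and 10.2 CPM and 48.2 CPM in mast cell II (log2 fold change −8.45, SE 1.58, adjusted p = 0.0123), and Tph1, the first enzyme of serotonin synthesis, had 854 CPM and 477 CPM against 0 reads (adjusted p = 0.0123). Of 9 IgE receptor and surface genes, 3 fell and 0 rose. Fcer1a had 592 CPM and 211.3 CPM against 0 reads (adjusted p = 0.00199), Fcer1g, the signalling chain, 2451 CPM and 3205 CPM against 35.6 CPM and 36.8 CPM (adjusted p = 0.0375), and Adora3, an adenosine receptor, 593 CPM and 444 CPM against 0 reads (adjusted p = 0.0140). Of 15 granule matrix genes, Srgn, the serglycin core protein, alone passed: it had 7170 CPM and 6413 CPM against 1088 CPM and 1311 CPM (log2 fold change −3.25, SE 0.33, adjusted p = 2.32e-05). The median log2 fold change was −5.65 for amines, −5.61 for the receptor list and −1.78 for the matrix, and −0.13 over all genes tested. All p-values here are from edgeR's quasi-likelihood test with Benjamini-Hochberg adjustment. With 1 of the 4 libraries left out in turn, Srgn and Fcer1a were called 4 times, Hdc 2 times, Tph1 and Adora3 once each and Fcer1g 0 times (highest adjusted p 0.351).

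Of the proteases outside the 7, Prss34 was the 1 that was called. It stood at 644 CPM and 989 CPM in mast cells and at 3589 CPM and 8285 CPM in basophils, with 0 reads in mast cell II. It was the 1 gene of 3 tested in the list of other mast cell and basophil proteases that fell in mast cell II, against mast cells (adjusted p = 9.69e-05) and against basophils (adjusted p = 2.41e-05). With any 1 library left out it stayed called in both, while DESeq2 gave 0.208 and 0.0609. Between mast cells and basophils it did not pass (log2 fold change −3.09, SE 0.77, adjusted p = 0.0723, edgeR). Of the other chymase-locus genes, Cma2 had 61.2 CPM and 86.2 CPM in mast cells, 12 reads in mast cell II and 0 in basophils, and Mcpt2, a chymase of mucosal mast cells, 58.5 CPM and 25.1 CPM, 0 reads and 1 read. Mcpt9 had 77 reads in mast cells and 0 in the other classes. Granzyme B, Gzmb, had 587 CPM and 50.9 CPM in mast cells and 522 CPM and 140 CPM in mast cell II, with 0 reads in basophils. Of the 4 genes of this locus list that were tested, edgeR called 0 in each of the 3 comparisons. At an unadjusted p under 0.05 there were 3 for mast cell II against mast cells, 4 for mast cells against basophils and 1 for mast cell II against basophils. In the same order, edgeR called 0.788%, 1.71% and 3.41% of all genes, and 2079, 2591 and 3253 of 15600 had an unadjusted p under 0.05. DESeq2 called 1, 2 and 1 genes of the list, and 9.42%, 14.1% and 18.5% of all its genes. Gzmb had an adjusted p of 0.0507 for mast cell II and 0.0647 for mast cells against basophils by edgeR. The counts of Mcpt4 and Cma2 can mix, since 5.48% of the 50-base stretches of Mcpt4 also occur in Cma2. For Cma1 the share was 5.38%, all with Gm48934, and for the other 5 members it was 0%.

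Of the tested genes of protease activation and inhibition, edgeR called Slpi alone. It was called against basophils, where 1.71% of all genes were called for mast cells and 3.41% for mast cell II. Between mast cell II and mast cells edgeR called 0 of the 13 genes, with 3 at an unadjusted p under 0.05 and 2 called by DESeq2. Over all genes edgeR called 0.788%, 2079 of 15600 had an unadjusted p under 0.05, and DESeq2 called 9.42%. With 13 genes, 0 calls does not set this list apart. Ctsc, the protease that activates granule serine proteases, had 249.4 CPM and 236.3 CPM in mast cells, 171.3 CPM and 33.9 CPM in mast cell II and 127.8 CPM and 36.2 CPM in basophils. Serpinb1a, an inhibitor of chymase and cathepsin G, had 7146 CPM and 6253 CPM in mast cells, 30.4 CPM and 151.2 CPM in mast cell II and 576 CPM and 675 CPM in basophils, and did not pass (adjusted p = 0.181 for mast cell II and 0.418 for mast cells against basophils, edgeR's quasi-likelihood test). Ndst2, a heparin-modifying enzyme, had 611 CPM and 432 CPM in mast cells and at most 41.4 CPM in any library of the other 2 classes (adjusted p = 0.158 and 0.106). Slpi, an inhibitor of leukocyte proteases, was the 1 gene of this list called between mast cells and basophils: it had 0 reads in mast cells and in mast cell II and 42.4 CPM and 118.8 CPM in basophils (adjusted p = 0.0378 against mast cells, or 0.0558 with the animals paired as a block, and 0.0308 against mast cell II). Beside it, the macrophage and monocyte markers summed to 1555 CPM and 983 CPM in basophils, against 6.15 CPM and 32.4 CPM in mast cells, with C1qa and Ly6c2 at 0 in basophils and 2 of the 8 markers at 50 CPM or more in both animals. The neutrophil markers summed to 435.7 CPM and 350.6 CPM in basophils against 0.0809 CPM and 3.41 CPM in mast cells, with 1 of 6 at that level, and the non-immune markers to 141.2 CPM and 186.8 CPM against 37.6 CPM and 7.98 CPM. Their part in the basophil values was not tested.

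Between mast cells and basophils the other lists gave few calls, where 1.71% of all genes were called. Kit, called in the receptor list (1 of 9), had 1388 CPM and 786 CPM against 9 reads (adjusted p = 0.0477, and 0.0589 with the animals paired as a block). Mitf, a transcription factor of mast cells, was the 1 of 18 called, with 162.5 CPM and 232.1 CPM against 0 reads (adjusted p = 0.0172). Hpgds, which makes prostaglandin D2, was the 1 of 9 arachidonate genes called, with 589 CPM and 465 CPM against 3 reads (adjusted p = 0.0388, and 0.0505 with the block). Tph1 was the 1 of 8 amine genes called (adjusted p = 0.0109). With a library left out in turn, Kit and Hpgds were called in 0 of 4 fits and Mitf and Tph1 in 1 of 4. Neither Hdc (7995 CPM and 11133 CPM in basophils) nor Srgn (4280 CPM and 5735 CPM) was called between these classes, and both were lower in mast cell II than in basophils (adjusted p = 0.00234 and 1.59e-05, edgeR's quasi-likelihood test). Hs3st1, which modifies heparan sulfate, had 0 reads in mast cell II against 160.2 CPM and 159.5 CPM in basophils (adjusted p = 0.0437, and 0.0516 with the animals paired as a block), and it was called with a library left out in 0 of 4 fits. Against basophils, where 3.41% of all genes were called, mast cell II was called lower for 4 of 9 receptor genes, among them Fcer1a (at least 10280-fold, adjusted p = 0.000470) and Ms4a2 (0 reads and 4.42 CPM against 801 CPM and 459 CPM, adjusted p = 0.0207), and for 2 of 9 arachidonate genes, Alox5 (0 reads against 837 CPM and 213.998 CPM, adjusted p = 0.0213) and Alox5ap (113.5 CPM and 242.96 CPM against 4177 CPM and 6537 CPM, adjusted p = 0.0207), by edgeR. Of 11 progenitor genes, 2 were called higher in mast cell II than in basophils by edgeR. Cd34 had 236.6 CPM and 87.7 CPM against 0 reads (adjusted p = 0.0419). Top2a, a gene of dividing cells, had 375.5 CPM and 467 CPM against 1 read (adjusted p = 0.002745). Mki67, another such gene of the list, was found after thinning in 8 of 53 basophils, 11 of 22 mast cell II cells and 13 of 59 mast cells. The Top2a reads thus do not show that basophils held no dividing cells. Mast cells were also called higher than basophils for Top2a (61.7 CPM and 514.6 CPM, adjusted p = 0.00453), so this is no difference of mast cell II alone; that call was lost within 1 sequencing run (0.0585) and kept in 2 of 4 fits with a library left out. Csf1r, the receptor of a macrophage growth factor, was called lower in mast cells than in basophils (0 reads against 66.8 CPM and 34.4 CPM, adjusted p = 0.0279), a call that was lost within 1 sequencing run (0.0686) and in all 4 fits with a library left out. For mast cell II against basophils with a library left out in turn, Cd34 was called in 0 of 4 fits, Alox5ap in 1, Alox5 and Ms4a2 in 2, Top2a in 3 and Fcer1a in 4.

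**Figure D5:**
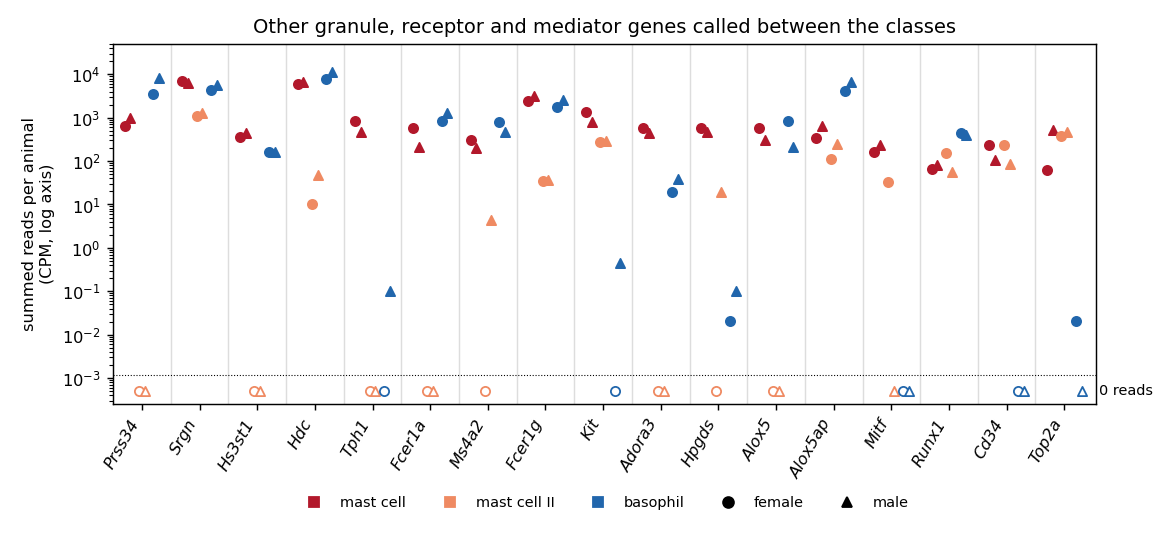
Summed level (CPM, log axis) of the named granule, receptor and mediator genes in mast cell, mast cell II and basophil, with a circle for the female and a triangle for the male; open marks below the dotted line stand for 0 reads. Mast cell II has 0 reads of Prss34, Hs3st1, Tph1, Fcer1a, Adora3 and Alox5 in both animals, and it lies close to mast cells for Cd34.

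Over the 30 summed libraries of the 15 subtypes tested, the genes whose log2(CPM + 1) was most like each member were found among 6847 genes, with the 7 members themselves left out of the ranking. For Tpsb2 they were Smpx (Pearson r = 0.993), Maob (0.976) and Rprm (0.971), and for Tpsab1 the same 3 (0.999, 0.992 and 0.990). Maob encodes a monoamine oxidase and stood at 876 CPM and 538 CPM in mast cells, with 0 reads in mast cell II and 56 in basophils. For Cma1 they were Atp8b5 (0.952), Cma2 (0.943) and Smpx (0.941), and for Mcpt4 Cobl (0.999), 4933431K23Rik (0.998) and Rprm (0.998). For Mcpt8 they were Dnase2b (0.982), 1110028F11Rik (0.981) and Prss34 (0.958). Cpa3 had Gnaz (0.917), Cyp11a1 (0.903) and Gna14 (0.898), and Ctsg had Cyp11a1 (0.976), Fcer1a (0.971) and Prss34 (0.966). Cyp11a1, an enzyme of steroid synthesis, stood at 4175 CPM and 2687 CPM in mast cells and 3060 CPM and 2756 CPM in basophils, the same 2 classes that held Cpa3 and Ctsg. These r describe libraries from 2 animals, most of them at or near 0 for each gene, and the 2 or 4 high libraries set their size.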

How the data were processed

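The authors deposited 1 table of raw read counts with a column for each cell, and every column was matched to a sample by its title (unused columns: 0). STAR 2.5.2b, HTSeq 0.10 and the genome build GRCh38 are named in the submitters' processing notes. That build is human and the samples are mouse, and the annotation and the use of strand are not given in the sources used here, so reads of overlapping or antisense genes may be mixed. The labels name no molecular identifiers, and no doublet caller was run, since cells were sorted into wells.

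Counts were summed per animal and subtype. Subtypes were used where each animal had at least 5 cells. These 15 gave 30 libraries for 1 fit with edgeR 4.0.16 in R 4.3.3 (glmQLFit and glmQLFTest, TMM, filterByExpr, Benjamini-Hochberg over all genes, called under 0.05). The mast cell, mast cell II and basophil classes were also tested against the other 13 labels summed, with 8 libraries. CPM were computed here from library totals without TMM factors. The SE is the size of the log2 fold change divided by the square root of the F statistic. Where a group had 0 reads, the fold is a lower bound against 3 reads over the group. A limit from 0 reads is that of 3 reads per library. Both cover the counting of reads only, and not which cells or animals were sampled. The alternatives were DESeq2 1.42.0, other scalings and library sizes, no filter on low counts, cells of the shared sequencing run DC35 or of the CD45 gate, equal weight per cell, the classes alone in the fit, the animal as a block, and each animal of each class left out in turn. All subtypes come from the same 2 animals, which pairs their libraries. The differences between the animals correlated between subtypes with a median r of 0.0249 over 105 pairs of subtypes (range −0.0600 to 0.0759).

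Counts were simulated from each gene's mean level over all 30 libraries. In mast cells, 200 genes with a mean of at least 50 CPM were raised. For mast cell against basophil over 15600 genes, the fit called 5 of 50 genes changed 8-fold and 34 of 50 changed 64-fold. It called 45 of 50 changed 512-fold, 50 of 50 changed 4096-fold and 1 of 15400 unchanged genes. Folds of 8, 64 and 512 can thus be missed. No changed gene was simulated as nearly absent from basophils, so these counts do not carry over to the members. The genes named are the 7 members, up to 3 called genes of each list in each direction with at least 50 CPM in both animals of the higher class, and the 3 genes, other than members, most like each member. Csf1r, Mki67, Ctsc, Serpinb1a, Ndst2, Gzmb, Cma2, Mcpt2, Mcpt9 and the single cells outside the 3 classes were chosen after their values were seen. The members and lists were chosen with earlier results of these data known. Listed genes without a row in the table, such as Mcpt1, were not analysed here. Sequences came from RefSeq promoter windows, which matched 5 of the 7 members.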

Additional observations from a re-analysis of the deposited data

How the results depend on the processing

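Of 536 log2 fold changes of members recomputed with other settings, 478 kept their direction and their side of the threshold, 32 came to pass it, 23 no longer did and 3 changed sign. The causes were not tested, except that leaving libraries or classes out leaves fewer samples. Counting calls in either direction, DESeq2 called 7 members in mast cells against the other cells (4 with edgeR), 3 in mast cell II and 5 in basophils (1 and 3 with edgeR), and 0 in mast cell II against basophils (2 with edgeR). With classes compared alone in the fit, the counts were 6 for mast cell II against mast cells and 6 for mast cells against basophils. For mast cell II they were 1 against basophils and 0 against the other cells. Pairing the animals as a replicate block left 1 member called in mast cell II against basophils, raised the count to 5 in mast cells against basophils and to 6 in mast cells against the other cells, and changed no member's call beyond those already given. The shared sequencing run left 1 in mast cell II against basophils. Leaving out the Mac III cell, an alternative chosen after seeing the data, gave 7 in mast cells.

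With 1 library left out in turn, 2 to 3 members were called in mast cell II against mast cells, 2 to 4 in mast cells against basophils, 1 in each fit of mast cell II against basophils, 2 to 7 in mast cells, 1 to 3 in mast cell II and 3 to 6 in basophils against the other cells. The fewest calls came without the female basophil library in mast cells against basophils (2) and without either mast cell library in mast cells against the other cells (2), and the most without either library of the other cells for mast cells (7) and without the female one for mast cell II (3) and basophils (6). The lone library is then assumed to vary like the other classes. Without 1 library, the log2 fold change against the other cells ran from −2.51 to 5.83 for Cma1 and from −2.61 to 9.13 for Mcpt8 in mast cell II, both lowest without the male mast cell II library. That of Tpsab1 in basophils ran from −10.13 to 1.11, which is its value without the male library of the other cells, and it was 1.51 without the Mac III cell.

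Shares of all tested genes that were called depended more on the setting. They were 0.788% for mast cell II against mast cells, 1.71% for mast cells against basophils and 3.41% for mast cell II against basophils with edgeR, 9.42%, 14.1% and 18.5% with DESeq2 and 0.363%, 0.641% and 1.54% in the shared sequencing run. With 1 library left out they were 0.198% to 0.372%, 0.587% to 1.04% and 1.24% to 1.99%. Classes alone gave 2.77% in the first, 2.62% in the second and 1.86% in the last. Against the other cells the shares were 1.64% in mast cells, 1.6% in mast cell II and 4.13% in basophils, with DESeq2 12.2%, 14.6% and 21.8%, and with classes alone 5.68%, 3.34% and 15%. With 1 library left out these were 0.318% to 1.36%, 0.730% to 1.4% and 1.78% to 6.50%.

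Scaling moved the median log2 fold change of all genes by −0.61 to 0.64. Without normalization factors, 50% of the called genes were higher for mast cell II against mast cells (17.9% with TMM), 72.8% for mast cell II against basophils (42.7%), 31.4% for mast cells (42%) and 17.2% for basophils (29.7%) against the other cells. Under library sizes taken from the labels, the first 2 were 37.9% and 68.3%. With 2 animals and 14 and 8 mast cell II cells, folds of low genes in mast cell II rest on few reads.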

Other observations

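Mast cell II cells held reads of genes of neutrophil precursors. Mpo, the myeloperoxidase of azurophil granules, stood at 120 CPM (female) and 34.5 CPM (male), where mast cells had 0.0162 CPM and 0.0726 CPM, neutrophils 0 reads and 0.133 CPM, and basophils 14.9 CPM and 0.0508 CPM. Prtn3, the proteinase 3 of the same granules, stood at 12.7 CPM and 46.4 CPM in mast cell II, against 0.485 CPM and 0.0363 CPM in mast cells. Between mast cell II and mast cells, neither gene passed edgeR's quasi-likelihood test (adjusted p = 0.225 and 0.576). Ctsg, which belongs to the same granules in neutrophil precursors, had 0 reads in mast cell II.

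Among the transcription factors, Gata2, a factor of mast cells and basophils, stood at 2074 CPM and 1878 CPM in mast cells, 528 CPM and 453 CPM in mast cell II and 2942 CPM and 3049 CPM in basophils, and did not pass in any of the 3 comparisons (adjusted p from 0.212 to 0.898). Between mast cell II and basophils, edgeR called 2 of 18 transcription factors, where 3.41% of all genes were called. Runx1 was lower in mast cell II (151.8 CPM and 56.9 CPM) than in basophils (455 CPM and 391 CPM), with an adjusted p of 0.0397 by edgeR. The other, Mitf, was called higher in mast cell II. Myb is a factor of blood cell progenitors. It stood at 331.6 CPM and 174.6 CPM in mast cell II and at 95.7 CPM and 51.7 CPM in mast cells. In basophils it stood at 8.16 CPM and 0.102 CPM, and it passed in none of the 3 comparisons (adjusted p from 0.169 to 0.904, edgeR). Apart from Runx1 and Mitf, these genes were chosen after their values were seen.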
